A study of Homo sapiens with 6 samples.

Results

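MHC class I molecules show short peptides from inside the cell at its surface. A polymorphic heavy chain pairs with beta-2-microglobulin in the endoplasmic reticulum, where the TAP transporter brings in peptides cut by the proteasome and the chaperone tapasin helps to fit them into the groove. NLRC5 is the transactivator of these genes and acts on a conserved promoter module of the heavy chain and beta-2-microglobulin genes. Described here are 9 of these genes, namely the heavy chain genes HLA-B, HLA-C, HLA-E and HLA-F, the light chain gene B2M, the transporter subunits TAP1 and TAP2, the tapasin gene TAPBP and NLRC5. They were listed by symbol, with earlier results of these data known, out of the 43424 symbols of the count tables. All 9 had reads in every library, and all 9 passed the filter on low counts.

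The libraries came from HL-60, a human acute myeloid leukaemia line labelled wild type, grown in RPMI-1640 with serum. For 6 months 3 samples labelled CIP received rising doses of an extract of Corydalis incisa (Thunb.) Pers., from 2 to 20 µg/ml, and 3 labelled DMSO received DMSO. The series calls the cells that grew in the extract resistant and asks which genes take part in the differentiation that CIP brings about. RNA was read near the polyadenylated end of each transcript with QuantSeq, so counts do not scale with transcript length. Library totals were 8143657 to 10868396 counts. The labels name neither separate cultures for the replicates nor a clone, so a p-value here reflects the spread of these samples alone, and that spread may be technical.

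The labels were read against markers first. MPO, the myeloperoxidase that marks the promyelocytic HL-60 line, had 77887, 82824 and 84917 counts with the CIP label but 15, 9 and 9 with the DMSO label, which goes against the DMSO label as HL-60. MYC, the oncogene amplified in HL-60, stood at 280.1 ± 52.3 with the CIP label against 41.8 ± 3.91 CPM (counts scaled to library size with TMM factors, in the usual CPM unit) with the DMSO label (SD, n = 3), which also goes against it. The other 5 markers of the line had reads in every library. Of the primary granule proteases CTSG was 6.86-fold, ELANE 1.78-fold and AZU1 1.75-fold lower with the CIP label and PRTN3 1.48-fold higher, and the myeloid receptor CD33 was 1.38-fold higher, all past the test. Groups are therefore named by their labels, and rose or fell means higher or lower in the libraries labelled CIP. Of 8 lymphocyte and NK markers 3 could be tested and 2 fell, NKG7 among them, with summed levels of 3.63 to 4.63 CPM with the CIP label and 80.8 to 99.4 CPM with the DMSO label, nearly all of it NKG7. MS4A1 was at 0 in every library, and CD3D and CD3E had sums of 1 and 3 counts with the CIP label and 0 with the DMSO label. Of 5 monocyte and macrophage markers only MARCO could be tested and fell (summed level 0.205 to 1.16 against 6.54 to 9.73 CPM), with CD163 and FCGR3A at 0. The 4 dendritic cell markers were not tested, with CD1C and CLEC9A at 0. Of 6 erythroid and megakaryocyte markers only ITGA2B, the platelet integrin chain, could be tested, and it rose, with 30, 21 and 21 counts with the CIP label and 0 with the DMSO label, while PPBP and PF4 were at 0 in every library. In the stromal and epithelial list 0 of 7 tested markers were called (summed level 58.0 to 143 against 141 to 252 CPM). The part of these cells' RNA in the results below was not tested.

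The pathway did not move as a block. Of the 9 genes 4 rose (NLRC5, TAP2, B2M and HLA-B), 3 fell (HLA-F, HLA-C and HLA-E) and 2 did not pass (TAP1 and TAPBP) in edgeR's quasi-likelihood test at a Benjamini-Hochberg adjusted p under 0.05. That test called 73.1% of the 12844 genes tested, 34.9% higher and 38.2% lower, so a share of 7 in 9 is close to the background. The median log2 fold change of the 9 genes was -0.01, against -0.03 over all genes tested. When only library totals scaled the counts, that median was -0.26, and the calls over all genes were 3452 higher and 5920 lower in place of 4482 and 4912. The same 7 genes had libraries that did not overlap between the labels, which held for 75.5% of genes tested. In RNA from whole cultures, fewer cells of a type and less RNA per cell cannot be told apart.

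**Figure D1:**
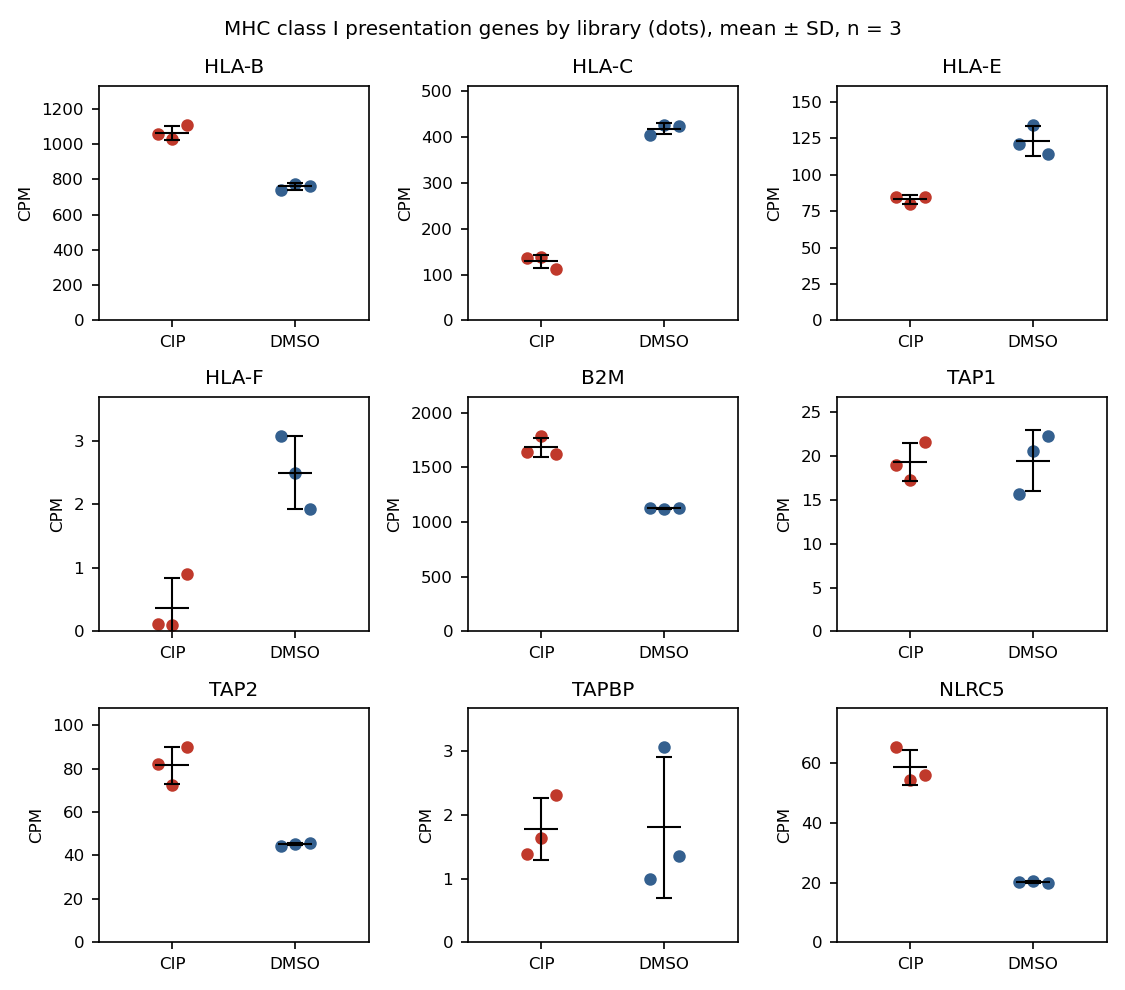
Expression of the 9 genes in CPM (TMM-scaled, linear axes from 0) in each library (dots), with mean ± SD over 3 libraries per label. HLA-B, B2M, TAP2 and NLRC5 lie higher in every CIP-labelled library, HLA-C, HLA-E and HLA-F lie lower, and TAP1 and TAPBP overlap.

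NLRC5 had the largest rise of the 9 genes. This transactivator (chromosome 16, 56989557 to 57083520, GRCh38.p14) stood at 65.4, 54.6 and 56.2 CPM with the CIP label, replicates 1 to 3 in turn, and at 20.3, 20.7 and 19.8 CPM with the DMSO label. Every CIP-labelled library lay above every DMSO-labelled one, and the DMSO-labelled ones differed little among themselves. The means were 58.7 ± 5.87 and 20.3 ± 0.462 CPM (SD, n = 3 each), a log2 fold change of 1.53 ± 0.12 (SE, adjusted p = 5.6e-14, edgeR), or 2.89-fold.

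The heavy chain genes split. HLA-B and HLA-C encode classical class I heavy chains, HLA-E a non-classical one that presents leader peptides of other class I chains to NK cell receptors, and HLA-F a non-classical one of low surface expression. The bases just upstream of HLA-B and HLA-C are shown because these reference promoters are alike while the counts moved in opposite directions. The sequences are RefSeq's, GRCh38.p14, minus strand, 250 bases ending 1 base before the start, chr6:31357180-31357429 for HLA-B and chr6:31272093-31272342 for HLA-C, and capitals mark matches to the motifs listed below.
HLA-B: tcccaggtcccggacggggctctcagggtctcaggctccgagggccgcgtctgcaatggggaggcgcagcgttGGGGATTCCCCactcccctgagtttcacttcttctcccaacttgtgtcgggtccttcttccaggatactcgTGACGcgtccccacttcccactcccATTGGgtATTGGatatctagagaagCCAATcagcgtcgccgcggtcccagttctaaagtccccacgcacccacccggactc
HLA-C: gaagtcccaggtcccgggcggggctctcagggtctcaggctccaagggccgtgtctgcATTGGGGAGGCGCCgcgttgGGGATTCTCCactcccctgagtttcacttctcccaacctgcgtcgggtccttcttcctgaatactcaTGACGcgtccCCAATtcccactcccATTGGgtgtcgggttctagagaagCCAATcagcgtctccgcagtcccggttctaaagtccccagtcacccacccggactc
Aligned without counting gaps, 226 of 246 bases were identical (91.9%). Both hold the TGACG letters of the X2 box (first base at -106 in HLA-B and -105 in HLA-C, counted back from the start) and, downstream of it, the CCAAT letters of the Y box on one strand or the other. These are reference alleles, and the alleles of the libraries are not known from counts.

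HLA-B (chromosome 6, 31353875 to 31357179) stood at 1056, 1028 and 1109 CPM with the CIP label and at 740.3, 777 and 766 CPM with the DMSO label. The libraries did not overlap, and the rise was modest, 1064 ± 41.2 against 761 ± 18.6 CPM, a log2 fold change of 0.48 ± 0.06 (SE, adjusted p = 7.6e-09, edgeR). HLA-C (chromosome 6, 31268749 to 31272092) went the other way, with 136, 138 and 113 CPM against 405, 426 and 424 CPM. Its lowest DMSO-labelled library was far above its highest CIP-labelled one, and its log2 fold change was -1.70 ± 0.07 (SE, adjusted p = 9.4e-21, edgeR), a level 3.25-fold lower.

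HLA-E (chromosome 6, 30489509 to 30494194) stood at 84.9, 79.7 and 84.8 CPM with the CIP label and at 121, 134 and 114 CPM with the DMSO label, again without overlap. It fell by 0.57 ± 0.08 on the log2 scale (SE, adjusted p = 9.6e-08, edgeR). HLA-F (chromosome 6, 29723434 to 29738532) had 1, 1 and 9 counts with the CIP label and 31, 26 and 17 with the DMSO label. Most of its CIP-labelled reads came from replicate 3, and its log2 fold change of -2.66 ± 0.62 (SE, adjusted p = 0.000274, edgeR) was -4.36 without that library. The antisense gene HLA-F-AS1 overlaps it and had 0 counts with the CIP label against 4.26 ± 0.831 CPM (SD, n = 3), and since the strand setting of the counting is not given, reads of the pair cannot be separated.

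Counts of HLA genes depend on the allele and on reads that fit several genes. In the longest coding transcripts of GENCODE 29 (GRCh38), the last 300 bases of HLA-B and HLA-C were 93.3% identical over 298 aligned bases, and the longest identical run in that window was 43 bases. For HLA-E and HLA-F against each other and against HLA-B or HLA-C the same window was 60.1% to 67.2% identical, a range that overlaps that of the unrelated B2M against these genes (56.3% to 63.7%), with identical runs of at most 8 bases. HLA-B and HLA-C counts are therefore uncertain with regard to each other. Added into 1 row and fitted again over all genes, HLA-B and HLA-C together had a log2 fold change of 0.02 ± 0.06 (SE, adjusted p = 0.80, edgeR), at 1193 ± 28.3 CPM with the CIP label and 1179 ± 30.1 CPM with the DMSO label (SD, n = 3). When only library totals scaled the counts, the sum was lower with the CIP label (log2 fold change -0.21, edgeR adjusted p = 0.000803).

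Shares within the 4 heavy chain rows do not depend on the scaling of libraries. HLA-B took 82.7%, 82.5% and 84.8% of these counts with the CIP label and 58.3%, 58.0% and 58.6% with the DMSO label. Across these libraries the Wilson 95% intervals, which cover counting error only, ran at the extremes from 57.2% to 58.8% (DMSO replicate 2) and from 84.2% to 85.4% (CIP replicate 3). HLA-C took 10.1% ± 1.29 against 32.1% ± 0.370 (SD, n = 3 each) and HLA-E 6.51% ± 0.126 against 9.43% ± 0.635. There were 8.34 ± 1.28 HLA-B counts per HLA-C count with the CIP label and 1.82 ± 0.0129 with the DMSO label. None of these values overlapped between the labels, and each gave p = 0.10 in a 2-sided exact permutation test, the smallest that 3 against 3 libraries allow.

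**Figure D2:**
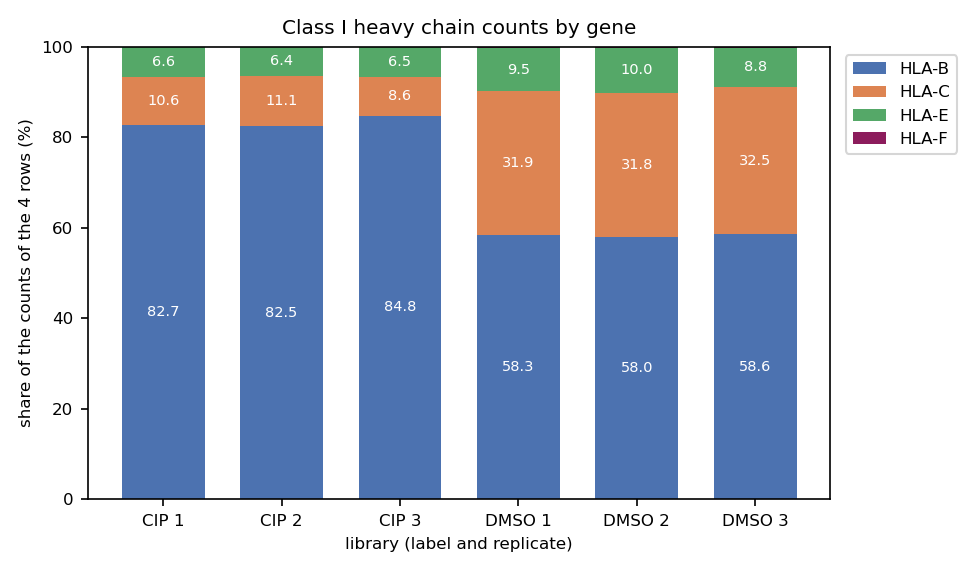
Stacked bars give each heavy chain gene's share, in percent, of the summed counts of HLA-B, HLA-C, HLA-E and HLA-F in each library. HLA-B holds 82.5% to 84.8% in the CIP-labelled libraries and 58.0% to 58.6% in the DMSO-labelled ones, while HLA-F is too small to see.

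B2M encodes the light chain that every heavy chain needs to reach the surface. Its upstream bases are shown because the gene moved with NLRC5 and HLA-B and lies on another chromosome than the heavy chains (RefSeq, GRCh38.p14, plus strand, chr15:44711267-44711516).
B2M: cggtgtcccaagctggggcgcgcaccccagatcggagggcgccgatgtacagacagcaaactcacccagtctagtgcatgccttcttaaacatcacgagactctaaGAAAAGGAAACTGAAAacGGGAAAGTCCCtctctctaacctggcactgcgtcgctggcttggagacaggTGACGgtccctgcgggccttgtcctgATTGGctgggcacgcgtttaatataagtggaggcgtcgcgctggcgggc
It holds overlapping matches to the interferon-stimulated response element, with first bases at -144 and -138, the NF-kB letters, TGACG at -75 and the inverted CCAAT at -49. B2M (chromosome 15, 44711517 to 44718145) stood at 1643, 1786 and 1621 CPM with the CIP label and at 1124, 1122 and 1129 CPM with the DMSO label. All CIP-labelled libraries were higher, at 1683 ± 89.8 against 1125 ± 3.79 CPM, a log2 fold change of 0.58 ± 0.06 (SE, adjusted p = 1.3e-10, edgeR), or 1.496-fold. The 4 heavy chain rows together did not show such a rise (1277 ± 31.2 against 1305 ± 34.9 CPM, exact permutation p = 0.50), and B2M counts per heavy chain count went from 0.863 ± 0.0241 with the DMSO label to 1.32 ± 0.102 with the CIP label (exact permutation p = 0.10, the smallest possible).

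The subunits of the peptide transporter differed in their change. TAP2 (chromosome 6, 32821831 to 32838739) stood at 82.0, 72.6 and 89.9 CPM with the CIP label and at 44.6, 45.4 and 45.8 CPM with the DMSO label. It rose 1.80-fold without overlap, a log2 fold change of 0.85 ± 0.09 (SE, adjusted p = 8.1e-10, edgeR). TAP1 (chromosome 6, 32845209 to 32853704), with 19.0, 17.3 and 21.6 CPM against 15.6, 20.5 and 22.3 CPM, overlapped between the labels. Its log2 fold change was -0.01 (95% interval -0.34 to 0.31, edgeR adjusted p = 0.95). TAP2 counts per TAP1 count were 4.23 ± 0.0845 with the CIP label and 2.37 ± 0.420 with the DMSO label, without overlap (exact permutation p = 0.10, the smallest possible). PSMB8-AS1 overlaps TAP1 in the annotation and fell from 25.1 ± 0.788 to 15.1 ± 0.722 CPM, and reads of that pair cannot be told apart by strand.

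TAP1 and the immunoproteasome gene PSMB9 lie head to head, with transcript starts 488 bases apart (TAP1 at 32853704 on the minus strand and PSMB9 at 32854192 on the plus strand), and are known to share a promoter region. The bases upstream of TAP1 are shown because both neighbours stayed within the spread of their libraries (RefSeq, GRCh38.p14, minus strand, chr6:32853705-32853954).
TAP1: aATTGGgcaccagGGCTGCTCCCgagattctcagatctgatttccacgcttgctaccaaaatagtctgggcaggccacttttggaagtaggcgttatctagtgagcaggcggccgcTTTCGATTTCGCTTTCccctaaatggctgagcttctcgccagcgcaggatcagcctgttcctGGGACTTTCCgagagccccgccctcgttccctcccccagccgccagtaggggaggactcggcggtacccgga
The run TTTCGATTTCGCTTTC at -134 is an overlapping pair of response element matches. PSMB9 stood at 28.5 ± 2.23 against 30.2 ± 2.34 CPM (SD, n = 3), a log2 fold change of -0.08 (95% interval -0.34 to 0.17, edgeR adjusted p = 0.57), and became a call with library totals alone (log2 fold change -0.31, edgeR adjusted p = 0.0277).

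TAPBP, the gene of tapasin (chromosome 6, 33299694 to 33314078), had 12, 16 and 23 counts with the CIP label and 10, 32 and 12 with the DMSO label. The libraries overlapped, and at this depth the 95% interval of its log2 fold change ran from -1.01 to 0.96 (edgeR adjusted p = 0.97), so a change of less than about this size was not detectable. Without DMSO replicate 2 the value was 0.60 (edgeR adjusted p = 0.39). Its neighbour RGL2 overlaps it and stood at 17.5 ± 1.54 against 14.8 ± 2.38 CPM.

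Motif letters were searched on both strands of RefSeq's 300-base windows, 250 bases before to 50 after the start, which the table gave for 7 of the 9 genes. The letters of the interferon-stimulated response element (TTTC, any 2 bases, TTTC) were found for HLA-F, B2M, TAP1, TAP2 and TAPBP, 5 of 7. They were found in 3.65% of 27305 promoters. Only exact letters were sought, so a variant of the element in another gene would not be counted. CCAAT was found for 5 of 7 (HLA-B, HLA-C, HLA-F, B2M and TAP1; 35.7% of promoters) and TGACG for 4 of 7 (HLA-B, HLA-C, B2M and TAP2; 25.01%). CCAAT and TGACG together were found for HLA-B, HLA-C and B2M, against 9.09% of promoters. An NF-kB pattern (GGGA, any 4 bases, CC) was found for 5 of 7 (HLA-B, HLA-C, B2M, TAP1 and TAPBP; 25.1%), and TTCNNNGAA, the GAS pattern, for 0 of 7 (7.88%). In HLA-C a CCAAT match and an NF-kB match overlap. The genes with a response element match included 2 that rose, 1 that fell and the 2 that did not pass.

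Of 9 proteasome genes listed for peptide supply 6 rose, 2 fell and 1 missed the threshold, beside 34.9% higher and 38.2% lower over all genes. Their median log2 fold change was 0.71 against -0.03 over all genes. The immunoproteasome subunits differed, since PSMB10 rose from 30.3 ± 4.40 to 104 ± 4.07 CPM (log2 fold change 1.78), PSMB8 fell slightly (116 ± 4.44 against 136 ± 4.97 CPM, log2 fold change -0.22) and PSMB9 did not pass. The constitutive counterparts differed too. PSMB5 rose from 90.9 ± 2.94 to 157 ± 9.12 CPM and PSMB7 from 159 ± 10.7 to 241 ± 17.8 CPM. PSMB6 fell from 138 ± 7.16 to 98.8 ± 5.29 CPM (log2 fold change -0.48). The activator subunits PSME1, PSME2 and PSME3 rose with log2 fold changes of 0.71, 0.75 and 0.85.

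Of 12 loading and trimming genes 5 rose, 3 fell and 4 missed the threshold (median log2 fold change 0.05). Among all genes tested 34.9% rose and 38.2% fell. ERAP2, an aminopeptidase that trims peptides in the endoplasmic reticulum and is known to differ between people by genotype, rose from 3.41 ± 0.309 to 25.2 ± 3.20 CPM (log2 fold change 2.88 ± 0.20, SE, adjusted p = 1.2e-14, edgeR). ERAP1, its partner, stood at 12.7 ± 2.06 against 15.2 ± 2.07 CPM and did not pass (edgeR adjusted p = 0.20). The chaperones CALR and CANX rose 3.03-fold and 2.28-fold. PDIA3, which works beside them in the loading complex, stood at 373 ± 9.28 against 388 ± 23.4 CPM and did not pass (edgeR adjusted p = 0.44). The tapasin relative TAPBPL rose from 4.36 ± 1.43 to 8.47 ± 2.80 CPM (edgeR adjusted p = 0.0042), a call lost without CIP replicate 1 (log2 fold change 0.67 in place of 0.95, adjusted p = 0.0707). With library totals alone 6 of the 12 were lower, PDIA3 and ERAP1 among them (log2 fold changes -0.28 and -0.49).

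**Figure D3:**
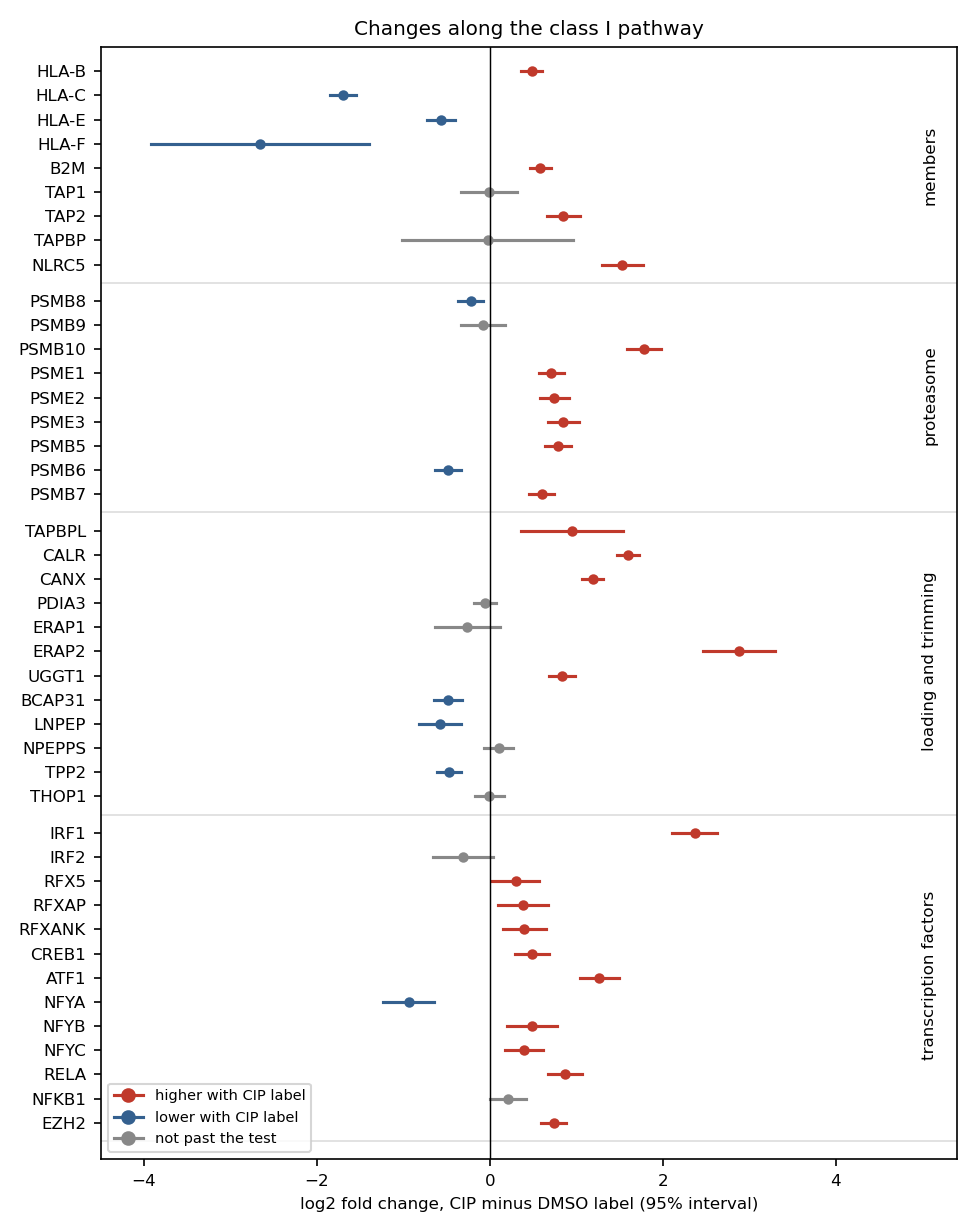
Log2 fold change (CIP minus DMSO label) with its 95% interval for the 9 genes and for the proteasome, loading and transcription factor lists, as far as they are reported here, coloured by call. Within each list genes lie on both sides of 0, with NLRC5 at 1.53, PSMB10 at 1.78, ERAP2 at 2.88 and IRF1 at 2.37 furthest to the right.

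Of 14 genes of transcription factors and other regulators of class I genes 10 rose, 2 fell and 2 missed the threshold (median log2 fold change 0.40). The 10 that rose include EZH2, which is not a transcription factor and acts in repression. The calls over all genes tested were 34.9% higher and 38.2% lower, 73.1% in all, and a difference from these shares was not tested. With library totals alone only 5 of the 14 were higher. IRF1, an interferon-induced activator of class I genes, rose most, from 10.5 ± 0.100 to 54.1 ± 2.41 CPM (log2 fold change 2.37 ± 0.13, SE, adjusted p = 8.3e-18, edgeR). ATF1, a factor of cyclic AMP response elements, rose 2.41-fold, and the NF-kB subunit RELA 1.82-fold. EZH2, the methyltransferase of a repressive complex known to silence class I genes in tumours, rose from 110 ± 0.219 to 183 ± 3.58 CPM. RFX5, which NLRC5 needs at the X box, stood at 30.8 ± 4.44 against 25.1 ± 0.944 CPM, a call (edgeR adjusted p = 0.0423) that was lost under 9 of 15 alternatives (adjusted p = 0.014 to 0.66 over all of them), among them with the replicate block (0.068) and without CIP replicate 2 (0.24) or any 1 DMSO replicate (0.064 to 0.11). The Y box subunits moved apart, NFYA from 32.2 ± 3.93 down to 16.7 ± 1.74 CPM and NFYB from 24.0 ± 1.79 up to 33.9 ± 7.34 CPM, the latter not called with library totals alone (edgeR adjusted p = 0.0995).

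Interferon-stimulated genes, which share activators with class I genes, were called lower more often than higher. Lower calls also led over all genes tested, with 38.2% lower and 34.9% higher, 73.1% in all. The difference of this list and of the signalling list below from those shares was not tested. Of 15 tested interferon-stimulated genes 1 rose, 8 fell and 6 missed it (median log2 fold change -1.02). BST2, a tethering factor of viruses, fell from 139.7 ± 7.499 to 9.85 ± 0.909 CPM, IFI6 fell from 44.3 ± 5.57 to 3.72 ± 2.29 CPM and CXCL10, a chemokine, fell from 11.9 ± 2.07 CPM to 0 counts, at least 114-fold lower (against 3 counts over the group). XAF1 rose from 0.364 ± 0.355 to 6.09 ± 1.79 CPM. Of 13 tested interferon signalling genes 4 rose, 7 fell and 2 missed the threshold (median log2 fold change -0.31), and with library totals alone 2 were higher. They included IFNAR2, a receptor chain, 3.03-fold lower, the kinase TYK2, 1.93-fold lower, and the phosphatase PTPN2, 2.52-fold higher. IFNGR1 was called higher at 9.52 ± 3.91 against 5.65 ± 1.91 CPM with overlapping libraries (edgeR adjusted p = 0.0181), a call lost in 5 of 15 alternatives. Its adjusted p was 0.29 without CIP replicate 2, 0.062 without DMSO replicate 2, 0.12 without DMSO replicate 3, 0.100 with library totals alone and 0.063 with DESeq2, and ranged from 0.0027 to 0.29 over the 15.

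The genes of class I turnover split evenly, 2 higher, 2 lower and 2 not past the test of 6 tested. Shares over all genes tested were 34.9% higher and 38.2% lower. MARCHF9, a ubiquitin ligase of class I molecules, fell from 21.3 ± 1.70 to 2.27 ± 0.604 CPM. SYVN1, a ligase of degradation from the endoplasmic reticulum, rose from 11.4 ± 0.332 to 38.9 ± 3.65 CPM. WWP2, a ubiquitin ligase, rose 1.40-fold and the signal peptide peptidase HM13 was 1.27-fold lower.

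Other class I-like, class II and receptor genes were called in 1 direction, while 34.9% of all genes tested were called higher and 38.2% lower. Many of them had few or 0 counts with the CIP label and passed the low-count filter through the DMSO-labelled libraries. Such genes could hardly be called higher, so the single direction and the medians of these lists partly follow from the filter. Of 6 tested class I-like genes 0 rose, 5 fell and 1 missed it (median log2 fold change -4.33, or -3.04 with genes at 0 set to their bound). FCGRT, the neonatal Fc receptor, which also pairs with beta-2-microglobulin, fell from 45.6 ± 2.49 to 0.240 ± 0.321 CPM. Its CIP counts were 1, 0 and 6, and its log2 fold change of -7.45 became -9.39 without CIP replicate 3 and -6.86 without CIP replicate 2. MR1, which presents vitamin metabolites and also pairs with it, fell from 14.2 ± 1.26 to 6.14 ± 1.51 CPM, and MICB, a stress ligand of the NK receptor NKG2D, fell from 42.4 ± 5.45 to 19.8 ± 3.56 CPM. PROCR, the protein C receptor, went from 12.8 ± 2.00 CPM to 0 counts, at least 121-fold lower. HLA-J, the 1 class I pseudogene that could be tested, fell from 8.85 ± 1.85 to 0.145 ± 0.0748 CPM, and it may share reads with other HLA genes.

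All 6 tested class II genes fell, against 38.2% of all genes tested. Of these 6, 4 had 0 counts with the CIP label and passed the low-count filter through the DMSO-labelled libraries alone. Those 4 could not come out higher, so the share of 6 in 6 is no result about the class as a whole. The median log2 fold change of the 6 was -7.55, or -5.36 with genes at 0 set to their bound. CIITA, the class II transactivator and relative of NLRC5, had 54, 43 and 22 counts with the DMSO label and 0 with the CIP label, at least 38.3-fold lower, so these related transactivators moved in opposite directions. CD74, the invariant chain, fell from 6.61 ± 1.56 to 1.11 ± 0.362 CPM. HLA-DOB fell from 11.5 ± 1.25 to 0.270 ± 0.467 CPM, with all 7 CIP-labelled counts in replicate 1. HLA-DRB5 was at least 63.3-fold lower and HLA-DRB1 at least 388-fold lower, both uncertain because they can share reads with each other. HLA-DRA had only 15, 14 and 14 counts with the DMSO label and 0 with the CIP label. Of the 14 listed class II genes 8 had too few counts with both labels to be tested. Of the listed cell type markers, NKG7 (3.20 against 79.7 CPM) and MARCO (0.116 against 7.35 CPM) were lower with the CIP label too. The listed markers GNLY, CD14, CSF1R, CD163 and FCGR3A had means below 1 CPM with both labels. No cell type is therefore read from NKG7 or MARCO, and the part of other cells in these results was not tested. All 4 tested genes of the receptor list fell, and LILRA2, the 1 above 5 CPM, went from 54.0 ± 8.65 to 8.25 ± 0.481 CPM. The others had few counts with the CIP label and passed the low-count filter through the DMSO-labelled libraries. A place on this list does not mean that the receptor binds class I molecules, and LILRA2 is not taken to do so.

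For each member above 10 CPM the closest profile among 8168 other genes was sought, by distance over 6 libraries of centred log2(CPM + 0.5). It was TRUB2 for NLRC5 (distance 0.054), MCM5 for HLA-B (0.042), ATP5PF for B2M (0.076), NOP2 for TAP2 (0.031), S100A4 for HLA-C (0.16), SEC13 for HLA-E (0.059) and C1orf162 for TAP1 (0.15). S100A4, a calcium-binding protein, stood at 105 ± 8.98 against 372 ± 7.70 CPM, close to the drop of HLA-C. TRUB2, a pseudouridine synthase, stood at 46.8 ± 3.64 against 16.1 ± 0.348 CPM. With 2 groups that differ in most genes, such a distance mainly reflects the size of the group difference.

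**Figure D4:**
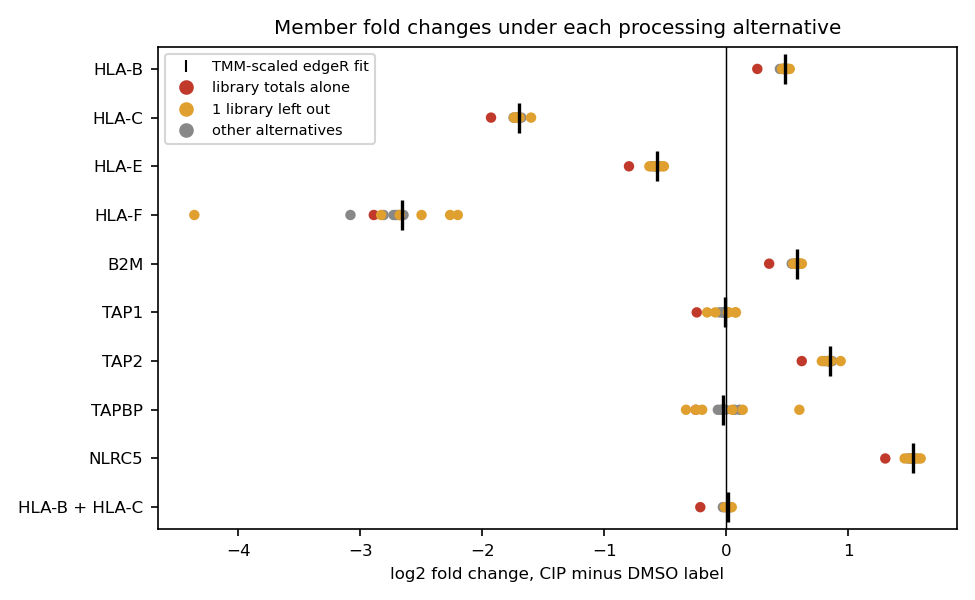
Log2 fold change (CIP minus DMSO label) of each of the 9 genes and of HLA-B and HLA-C summed, in the TMM-scaled edgeR fit (black bar) and in 15 alternatives (dots). The 7 called genes stay on their side of 0, and library totals alone lie lower than the black bar for every gene.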

How the data were processed

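The 6 libraries (3 CIP, 3 DMSO) were grouped by sample title. Per the file headers, each deposited file holds the raw read counts of 1 library by gene symbol. GRCh38, STAR, HTSeq, fastp and bcl2fastq 2.20.0.422 appear in the submitters' processing notes without role or order. Annotation, strand setting, molecular identifiers and the handling of ambiguous reads are not given in the sources used. The counting of HLA genes can depend on all of these.

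Counts were tested with edgeR 4.0.16 in R 4.3.3 (quasi-likelihood, robust, filterByExpr, TMM, group alone, 2-sided, Benjamini-Hochberg over 12844 genes, call at an adjusted p under 0.05). The procedure was tested on simulated data. SE is the log2 fold change over the root of F. In a library 3 counts equal 0.288 to 0.347 CPM. Equal replicate numbers did not pair libraries (correlation of deviations -0.04 to -0.02). No pair of libraries of a label was as close as sampling noise (chi-square 3.82 to 7.66 per gene).

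Positions and promoters come from RefSeq GRCh38.p14, matched by symbol for 9 of 9 and 7 of 9 genes, and transcripts from GENCODE 29. All 9 genes are named, and per list up to 4 called genes (6 for proteasome and transcription factors) of at least 5 CPM with the largest changes, and some by name whatever their values. HLA-F-AS1, PSMB8-AS1 and RGL2 were added after the data were seen because they overlap members. PSMB6 was also added then, because the other constitutive counterparts are named. The members and lists were chosen with earlier results of these data known. Other class I heavy chain genes were not used here, and a few listed genes are counted without being named. As alternatives, scaling was by RLE, upper quartile or library totals, with further fits using no low-count filter, 1 CPM in 3 libraries, no robust fitting, DESeq2 1.42.0, limma-voom (limma 3.58.1), a replicate block and each library left out.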

Additional observations from a re-analysis of the deposited data

How the results depend on the processing

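Of the 9 genes, the 7 calls kept their direction and their side of the threshold in all 15 alternatives (4 higher and 3 lower in each), from 9061 to 10349 genes being called in all. The called log2 fold changes ranged from 0.25 to 0.52 for HLA-B, -1.93 to -1.60 for HLA-C, -0.80 to -0.51 for HLA-E, -4.36 to -2.20 for HLA-F, 0.35 to 0.62 for B2M, 0.62 to 0.94 for TAP2 and 1.30 to 1.59 for NLRC5. Values near 0 changed sign, and the cause was not tested. HLA-B and HLA-C summed stood at -0.00443 with RLE scaling, -0.0284 with upper-quartile scaling and -0.21 with library totals alone (adjusted p = 0.000803, edgeR), and at -0.0123 to 0.0445 with 1 library left out. TAP1 stood at 0.00675 with no filter on low counts, 0.00458 with limma-voom and -0.16 to 0.079 with 1 library left out. TAPBP stood at 0.11 with limma-voom, 0.068 with the replicate block and -0.33 to 0.60 with 1 library left out. The replicate block gave 9061 calls over all genes in place of 9394, 4 higher and 3 lower among the 9 genes, and 0.0172 for HLA-B and HLA-C summed. Same-numbered libraries had correlations of deviations from -0.04 to -0.02, so the numbers do not pair them. For the 45 other genes named from the lists by rule, 656 of 675 values kept direction and side, 16 were no longer past the threshold and 3 newly were. Depth limits TAPBP and HLA-F, with at most 32 counts in a library.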

Other observations

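Of the 9 genes 7 lie in the MHC region of chromosome 6, taken from GABBR1 to KIFC1 (29602238 to 33409896, GRCh38.p14). Of the other 96 genes tested there 20 rose (20.8%), 49 fell (51.0%) and 27 did not pass, against 34.9% higher and 38.2% lower over all genes tested and 32.8% and 42.1% over 549 genes elsewhere on chromosome 6. The median log2 fold change was -0.34 in the region without the members, -0.12 elsewhere on the chromosome and -0.03 over all genes. Neighbours are not independent, and the difference between these shares was not tested. Calls of both directions were interspersed. In the class III stretch between the heavy chain and class II genes, TNF, an inflammatory cytokine, stood at 9.03 against 1.47 CPM (CIP and DMSO label, log2 fold change 2.59), LTB, a related cytokine, at 27.0 against 12.2 CPM (1.15) and AIF1, an actin-binding protein of myeloid cells, at 398 against 173 CPM (1.202). The complement gene C2 had 15.7 CPM with the DMSO label and a mean of 0 with the CIP label. At the telomeric end GABBR1 stood at 0.338 against 19.2 CPM (-5.72). FLOT1, a membrane scaffold gene that lies between HLA-E and HLA-C, stood at 1.16 against 38.7 CPM (-5.04). These genes were chosen after their values were seen.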
